A study of Mus musculus with 4 samples.

Results

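MicroRNAs are short RNAs cut from hairpin precursors, and the precursors are transcribed either from their own promoters or as a piece of a longer host transcript, often from an intron of a protein-coding gene. The mature strand pairs with target mRNAs mainly through its seed, which spans bases 2 to 8 counted from 1 at the 5′ end. CpGs in CpG-rich promoter sequence are largely unmethylated in mammalian tissues, whereas CpGs inside transcribed gene bodies and in CpG-poor sequence are mostly methylated, so the surroundings of a hairpin set what its methylation is read against.

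The CpGs at microRNA precursors were taken as the cytosines lying within 500 bp of an autosomal RefSeq precursor transcript (symbols beginning with Mir, shorter than 200 bp, Mir7053 left out) and covered by at least 10 reads in each of 4 mouse livers. There were 5429 such cytosines, 0.433% of the 1253673 autosomal cytosines common to the 4 mice, and both strands of a CpG were counted separately. They lay at 292 of 1089 precursors. The other 797 precursors had no common cytosine, 44 had 1 or 2, and 248 had at least 3 and carry the comparisons between microRNAs. These 248 occupied 222 separate loci, because neighbouring or antisense precursors share a window, and 398 cytosines belonged to more than 1 microRNA.

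Methylation was measured by enhanced reduced representation bisulfite sequencing (ERRBS), which digests DNA with MspI and so samples CpG-rich fragments. The 4 livers came from male mice aged 6 to 8 weeks on a normal diet: a Mixed pair (Mixed-1 and Mixed-2), of an undefined mixed background that includes C57BL/6J, and a B6 pair (B6-1 and B6-2), which were C57BL/6 (Black-6 in the labels). Values given for the 4 mice in a row follow this order. The strains were housed at different institutions, and an effect of strain cannot be told apart from an effect of housing, and whole livers were used, so the values average over hepatocytes and the other liver cells. Bisulfite does not separate 5-methylcytosine from 5-hydroxymethylcytosine.

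The files held 1329761 to 1557387 cytosines a mouse with a median coverage of 39 to 55 reads. At the microRNA cytosines the median coverage was 44 and 47 reads in the Mixed mice and 68 and 62 in the B6 mice. The liver label could be read only through promoters. Of 9 hepatocyte genes, 3 had common cytosines within 1000 bp of a start site: Cebpa averaged 0.129%, Apoa2 0.651% and Hnf4a 28.7%, while 4 of 4 neuronal genes were also below 20%. The muscle genes Ckm and Acta1 stood at 84.6% and 32.3%, and the albumin and blood cell promoters (Alb, Ptprc, Cd79a, Cd3e) had no common cytosine.

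The sequences below carry the comparison between microRNAs that share a seed or a whole mature strand and differ in methylation. RefSeq sequences on GRCm38.p6 were found for 270 of the 292 microRNAs. Capitals in the mature strands mark the seed. miR-219a-5p is made from Mir219a-1 and from Mir219a-2, miR-9-5p from Mir9-1, Mir9-2 and Mir9-3, and miR-26a-5p from Mir26a-1 and Mir26a-2, in each case with an identical sequence. let-7e-5p and let-7i-5p share the seed GAGGUAG, and miR-25-3p and miR-92b-3p share AUUGCAC.
miR-219a-5p: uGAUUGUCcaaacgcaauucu
miR-9-5p: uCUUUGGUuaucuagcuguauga
miR-26a-5p: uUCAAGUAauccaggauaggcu
let-7e-5p: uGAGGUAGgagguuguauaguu
let-7i-5p: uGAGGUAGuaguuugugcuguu
miR-25-3p: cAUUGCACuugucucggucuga
miR-92b-3p: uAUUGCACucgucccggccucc

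The precursors below are the hairpins of the miR-219a pair, identical in the mature strand, and of the let-7 pair, identical in the seed. Here a capital C marks a cytosine that was measured in all 4 mice, and a capital G marks a base opposite such a cytosine on the other strand. Mir219a-1 is at chr17:34024983-34025092 on the minus strand, outside any gene and 303 bp from the start of a Ring1 transcript. Mir219a-2 is at chr2:29845631-29845727 on the minus strand, outside any gene and 18242 bp from the nearest start site of an NM_ transcript (a curated RefSeq mRNA), that of Urm1. Mirlet7e is at chr17:17830352-17830444 on the plus strand, 531 bp from the start of Spaca6, and Mirlet7i is at chr10:122985640-122985724 on the minus strand, 90781 bp from the nearest NM_ start site.
Mir219a-1: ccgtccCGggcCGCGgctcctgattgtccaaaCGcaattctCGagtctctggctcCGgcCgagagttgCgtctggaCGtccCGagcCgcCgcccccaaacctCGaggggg
Mir219a-2: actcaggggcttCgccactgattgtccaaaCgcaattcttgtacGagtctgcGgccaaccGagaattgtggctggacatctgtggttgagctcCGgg
Mirlet7e: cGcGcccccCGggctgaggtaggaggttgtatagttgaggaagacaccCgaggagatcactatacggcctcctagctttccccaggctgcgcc
Mirlet7i: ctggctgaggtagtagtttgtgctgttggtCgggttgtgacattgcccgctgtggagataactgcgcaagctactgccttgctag

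The CpGs around microRNA precursors ranged from nearly free of methylation to almost fully methylated. Averaged over its cytosines and the 4 mice, 107 of 248 microRNAs were hypomethylated (below 20%), 84 were hypermethylated (above 80%) and 57 lay between. The mean over microRNAs was 46.0% and 46.3% in the Mixed mice and 45.1% and 45.8% in the B6 mice. The highest among microRNAs with at least 10 cytosines was Mir6947, in an intron of Actr8, at 96.3% ± 0.670 (SD, n = 4). Mir7654, in the coding exon of Arglu1, was among the lowest, at 0.0873% ± 0.0317 over 130 cytosines. Within a single microRNA the cytosines differed most in the middle class: the median gap between its lowest and highest cytosine was 41.4 points, against 3.08 points in the hypomethylated class and 12.1 points in the hypermethylated class.

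Position relative to a promoter divided the microRNAs. The 71 precursors within 1000 bp of the start site (TSS) of an NM_ transcript averaged 5.22% ± 0.276 (SD, n = 4 mice), and 66 of them were hypomethylated. The 177 farther away averaged 62.1% ± 0.6005, with 41 hypomethylated, 53 between and 83 hypermethylated. The difference, near minus far, was -56.8 and -57.3 points in the Mixed mice and -56.4 and -57.1 points in the B6 mice. All 4 mice showed the same direction and the spread between them was 0.380 points (SD). A two-sided exact sign-flip permutation test over the 4 mice gave p = 0.125, the smallest it can give for 4 animals, so no difference of this kind can pass 0.05 here.

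The change with distance was steep at first and then flat. Precursors less than 500 bp from a TSS averaged 3.52% (59 microRNAs), those from 500 to 1000 bp 13.6% (12), those from 1000 to 2000 bp 37.1% (13) and those from 2000 to 5000 bp 63.7% (39). From 5000 to 10000 bp the mean was 67.1% (32), and from 10000 to 50000 bp it was 67.3% (70). It was 50.6% in the 23 microRNAs beyond that distance, of which 10 were hypomethylated and 11 hypermethylated.

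**Figure D1:**
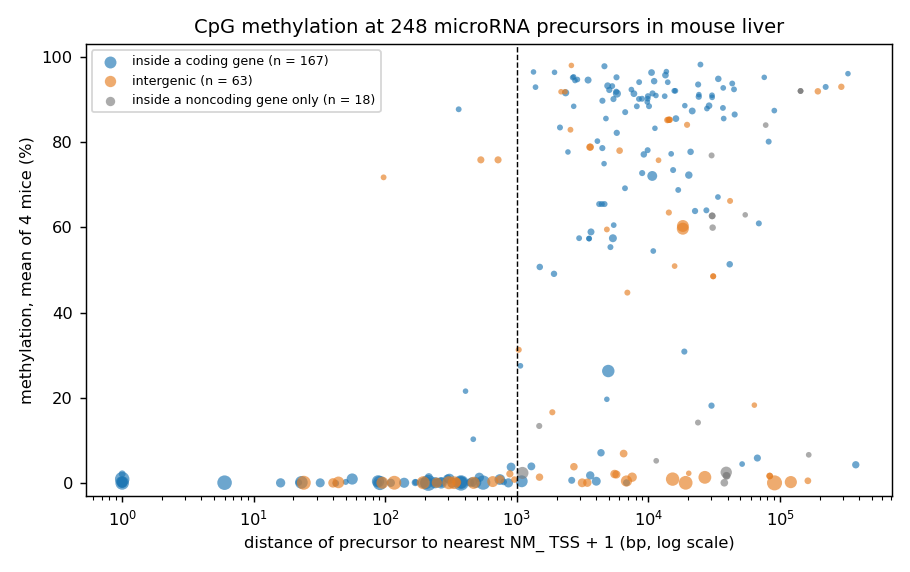
Mean methylation of each of 248 microRNAs (vertical axis, percent, mean of 4 mice) against the distance of its precursor to the nearest NM_ TSS (horizontal axis, bp plus 1, log scale); blue points lie inside coding genes, orange points are intergenic and grey points lie inside noncoding genes only, point area grows with the number of cytosines, and the dashed line marks 1000 bp. Left of the line 66 of 71 microRNAs sit below 20%, and right of it the points spread from 0.101% to 98.2%.

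Of the 71 microRNAs near a TSS with at least 3 cytosines, 5 were not hypomethylated. Mir6396, in an intron of Pabpn1l and 360 bp from its start, was at 83.6% and 85.8% in the Mixed mice and at 94.2% and 87.2% in the B6 mice. Mir99b and Mirlet7e shared all 15 of their cytosines and stood at 80.2%, 78.9%, 73.1% and 71.1% in the 4 mice. Mir125a, the third hairpin of that cluster, 96 bp from the Spaca6 start, stood at 77.3%, 76.9%, 63.1% and 69.6%. All 4 of these windows were CpG-poor, with an observed to expected CpG ratio of 0.228 at Mir6396 and 0.247 to 0.322 in the cluster, where the median of the 71 near windows was 0.744. The fifth was Mir2139, in the coding exon of Klhdc7a, at 21.6% ± 8.96 over 3 cytosines. Mir26a-2, outside the 71 because it had only 2 cytosines, was also near a TSS and stood at 81.5%.

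CpG content moved with these values. Near a TSS, all 53 microRNAs in windows with a ratio of 0.6 or above were hypomethylated and averaged 0.315%, and the 18 in poorer windows averaged 19.6%. Far from a TSS, the 28 in CpG-rich windows averaged 14.5% and the 149 in poorer windows 71.1%. The near minus far difference was therefore -14.1 points among CpG-rich windows and -51.4 points among the others, both in 4 of 4 mice (exact permutation p = 0.125, the smallest possible); these strata were chosen after the values were seen. Across the 248 microRNAs Spearman's rho between methylation and the CpG ratio was -0.722, a description over microRNAs, some of which share cytosines.

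Whether a precursor lay inside a gene was compared next. The 167 microRNAs inside the transcribed span of a coding gene averaged 51.0% ± 0.450 (SD, n = 4 mice) and the 63 intergenic ones 33.5% ± 0.605. The difference was 17.4, 17.2, 17.6 and 17.8 points in the mice (4 of 4 mice, exact permutation p = 0.125). It was not the same in every sequence context: among CpG-rich windows it was reversed, at -5.11 points, and among the others it was 12.5 points. Classing each cytosine by its own position and weighting all cytosines equally, without a minimum per microRNA, gave a difference of 8.65 points over all windows.

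Far from a TSS the gap between hosts was wider. Coding-gene microRNAs (114) averaged 73.5% ± 0.607 and intergenic ones (45) 41.8% ± 0.603, and the difference was 31.9, 31.5, 31.5 and 31.8 points in the 4 mice. The 18 hosted only by a noncoding transcript averaged 40.7% ± 1.10. Hypomethylation was found at 12 of the 114 coding-gene microRNAs and at 20 of the 45 intergenic ones. Only 6 of the 114 lay in CpG-rich windows, against 17 of the 45, and the coding minus intergenic difference was 17.5 points among the CpG-poor windows and 4.39 points among the CpG-rich ones (exact permutation p = 0.125 for each).

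Among coding hosts far from the TSS, introns and coding exons had close means. Intronic microRNAs averaged 73.6% (90), those overlapping coding exons 71.6% (22), and those in 3′ UTR exons 90.8% (2). Hairpins on the strand of the host averaged 75.7% (101) and antisense ones 56.0% (13, of which 5 were hypomethylated and 7 hypermethylated); this contrast was not tested. Near the TSS the means were 0.412% in 5′ UTR exons (20), 2.32% in coding exons (10) and 4.76% in introns (23).

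Near a TSS the direction between hosts was the opposite, at 2.66% for 53 coding-gene and 12.7% for 18 intergenic microRNAs. The difference of -10.1 points ± 0.802 (SD, n = 4; exact permutation p = 0.125) rested on the cluster of Mir99b, Mirlet7e and Mir125a: without these 3 microRNAs it was 2.26 points.

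**Figure D2:**
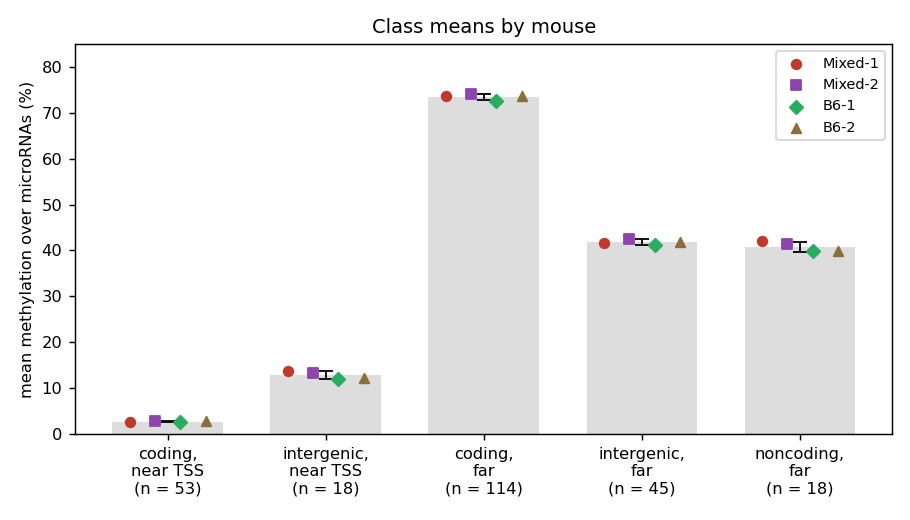
Mean methylation over the microRNAs of each class (vertical axis, percent) by host and by distance to the nearest NM_ TSS, with 1 point per mouse, a grey bar for the mean of the 4 mice and its SD as the error bar. The coding far class runs from 72.6% to 74.0% over the mice, and its mean of 73.5% stands 31.7 points above that of the intergenic far class.

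The following are among the 12 coding-gene microRNAs that were hypomethylated far from a TSS. Mir1895 in a coding exon of Cxxc4 (0.489%), Mir1901 in a coding exon of Cables1 (0.474%) and Mir7655 in Mllt10 (0.703%) were below 1%, and Mir12181 in Coro6 stood at 1.85%. Mir7687 in Gse1, Mir1904 in Pde4d, Mir6405 in Pax2, Mir128-2 in Arpp21 and Mir1905 in Mex3a lay from 3.97% to 7.16%. Mir199b in Dnm1 at 18.2% and Mir3058 in Nudt4 at 19.7% were just inside the threshold. Most of these were named after their values were seen.

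The precursor itself did not stand out from its flanks. In the 112 microRNAs with cytosines both inside the precursor and in the flanks, the precursor was higher by 0.735 points ± 0.185 (SD, n = 4 mice), in 4 of 4 mice (exact permutation p = 0.125). With a window of 250 bp in place of 500 bp the difference was -0.0450 points, so the sign depended on the window, and with a coverage minimum of 20 reads it was 0.0742 points (exact permutation p = 0.5). Counted by microRNA, the precursor was lower than its flank at 66 and higher at 45. The precursor lay within 10 points of its flank at 49 of 50 near and 45 of 62 far microRNAs. Larger gaps occurred in both directions: Mir219b, the antisense hairpin at Mir219a-2, had 87.6% in the precursor and 58.7% in the flanks, while Mir7685 had 47.9% and 84.2%.

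Measured against other CpGs of the same liver genomes, the near cytosines at microRNAs (3226) averaged 0.968% and the 674946 other cytosines within 1000 bp of an NM_ TSS 2.28%. The difference was -1.32 points ± 0.0188 (SD, n = 4; exact permutation p = 0.125). Farther away the 2203 microRNA cytosines averaged 35.7% and 573298 others 59.2%, a difference of -23.5, -23.6, -23.9 and -23.3 points in the 4 mice (exact permutation p = 0.125).

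This far difference was not spread evenly over gene context. Inside coding genes the microRNA cytosines (1032) averaged 59.7% and the others 60.5%, and the difference by mouse ran from -1.38 to -0.391 points. Outside any gene the microRNA cytosines (1006) averaged 14.7% and the others 59.4%, from -45.0 to -44.4 points by mouse. Of those 1006 cytosines, 47.4% belonged to 5 microRNAs, Mirlet7i, Mir760, Mir203, Mir124a-3 and Mir193a, which together averaged 0.540%. The remaining 529 averaged 27.4%. CpG content moved with it too: 51.5% of far microRNA cytosines lay in CpG-rich surroundings against 20.1% of the others. Split by CpG ratio, the difference was -4.88 points (0.6 or above) and -5.71 points (below 0.6). The split was chosen after the values were seen, and the ratio was not matched within either part.

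Known families were then read one by one. Over all 292 microRNAs with at least 1 common cytosine, 114 were hypomethylated, 68 between and 110 hypermethylated, with a median of 60.7%. Against this, 11 of the 20 annotated microRNAs listed for neuronal expression or function had common cytosines. Of these 9 were hypomethylated and 2 between, with a median of 1.79%. They include Mir219a-1 and Mir219a-2, whose shared product is described below as a microRNA of oligodendrocyte maturation. Mir124a-3, whose product is among the most abundant microRNAs of neurons, had 85 cytosines and stood at 1.02%, 1.41%, 1.31% and 1.86% in the 4 mice. Mir212 and Mir132, activity-regulated microRNAs of a common primary transcript, stood at 0.119% and 0.141%. Their windows overlap and held the same number of methylated reads in each mouse, so these are not separate measurements. Mir9-1, Mir9-3, Mir129-2 and Mir128-2 lay from 1.72% to 5.93%.

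**Figure D3:**
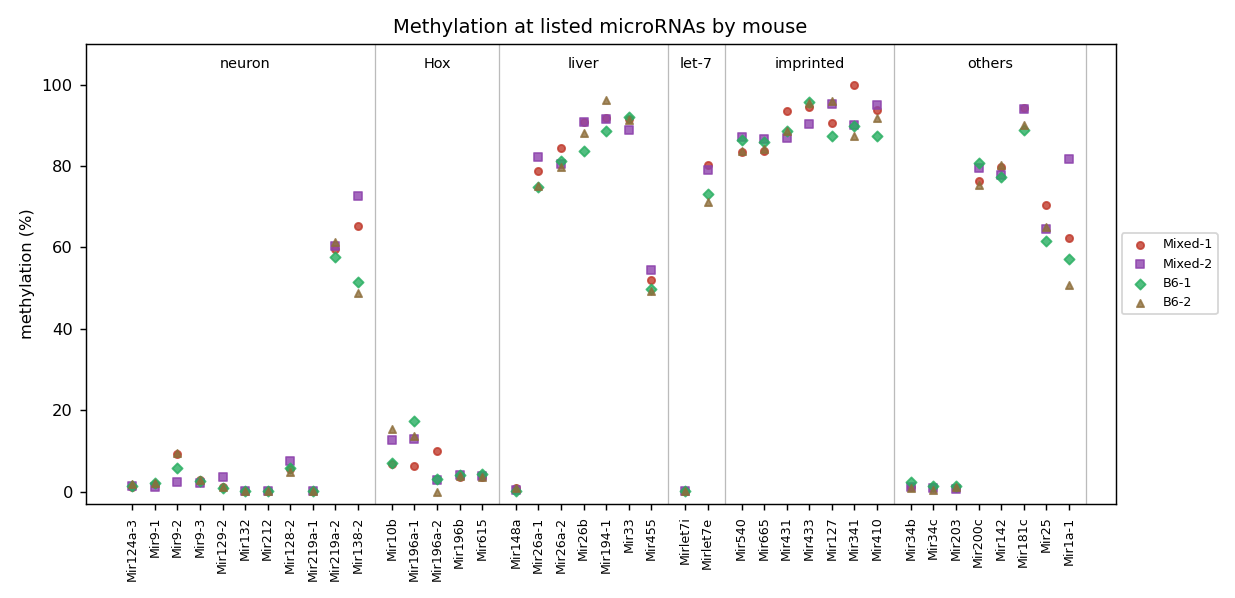
Methylation (vertical axis, percent) of listed microRNAs with common cytosines in each of the 4 mice, grouped by the function or locus they were listed under. The neuron group lies below 10% except for Mir219a-2 and Mir138-2, the Hox group lies below 20%, and the imprinted group lies above 80% in every mouse.

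The Hox clusters were uniformly low: 5 of 6 members had common cytosines and all 5 were hypomethylated. Mir196b, beside Hoxa9, had 19 cytosines and stood at 3.89% ± 0.187, and Mir615, in an intron of Hoxc5, had 31 and stood at 3.82% ± 0.441. Mir10b (10.5%), Mir196a-1 (12.6%) and Mir196a-2 (4.0045%) rested on 1 or 2 cytosines each.

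The 7 measured microRNAs of the imprinted group were all hypermethylated, and all lay in the Dlk1-Dio3 domain of chromosome 12, where many microRNAs are transcribed from the maternal allele. Mir433, Mir127 and Mir431, which are antisense to the coding exon of Rtl1, stood at 94.1% ± 2.50, 92.3% ± 4.12 and 89.4% ± 2.78. Mir540 and Mir665 shared cytosines and stood at 85.2% each, and Mir410 at 92.0%. Mir341 at 91.8% rested on 1 cytosine. These values apply to the hairpins and not to the control region of the domain, and the rest of the 98 listed members had no common cytosine.

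Liver-associated microRNAs were sparsely sampled and mostly methylated. Mir122, the dominant hepatocyte microRNA, had 0 common cytosines, as had Mir192 and Mir21a, so that nothing can be said of them. Of 25 annotated, 7 had common cytosines. Mir148a, intergenic, had 12 and was at 0.834%, 0.442%, 0.113% and 0.980% in the 4 mice. Mir194-1 in Iars2 (92.0%), Mir33 in Srebf2 (91.0%, 2 cytosines) and Mir26b in Ctdsp1 (88.4%, 3 cytosines) were hypermethylated, as was Mir26a-2 (81.5%, 2 cytosines), and Mir26a-1 (77.7%) and Mir455 in Col27a1 (51.4%) lay between. With a window of 1000 bp Mir26b stood at 48.4%, so its class depended on the window. The 4 values above 80% and the 2 between all belong to microRNAs inside coding genes.

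The remaining groups had 1 to 6 measured members each. Among the p53-responsive microRNAs Mir34b and Mir34c stood at 1.44% and 0.876% and Mir215 at 92.0%, and Mir34a had no common cytosine. Mir215 had the same 4 cytosines as Mir194-1 of the liver group. Of the epithelial group Mir203 stood at 0.986% over 94 cytosines and Mir200c at 78.0% ± 2.51 over 11. Mir25, Mir93 and Mir106b of the proliferation-linked cluster in Mcm7 shared 6 cytosines and stood at 70.5%, 64.6%, 61.7% and 65.1% in the 4 mice. Mir142, a blood cell microRNA, was at 78.8% ± 1.46 and Mir181c, with Mir181d at the same cytosines, at 91.8%. The muscle microRNA Mir1a-1 varied most among them, at 62.2%, 81.7%, 57.2% and 50.7% over 3 cytosines. The Mir290 cluster, whose products mark embryonic stem cells, lay from 48.5% at Mir290a to 76.9% at Mir291b, and none of its 6 measured members was below 20%. These members share cytosines and are not separate measurements: Mir290a and Mir290b had the same values over 6 cytosines, and Mir292 and Mir292b over 12.

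The proteins that make and load microRNAs were read at their own promoters. All 15 listed genes had common cytosines within 1000 bp of an NM_ TSS, 1203 in total, and 14 were below 20%. Drosha, which cuts the primary transcript, averaged 0.185%, Dicer1, which cuts the hairpin, 0.116%, and Ago2, which holds the mature strand, 0.125%. The exception was Ddx17, a helicase of the Drosha complex, at 26.1%, 24.8%, 25.5% and 27.2% in the 4 mice.

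Identical mature microRNAs did not always come from similarly methylated loci. Of the mature strands made at more than 1 covered locus there were 5, and in 4 of them the loci lay within 8.57 points of each other. Both miR-9-5p and miR-9-3p are among these 4 and come from the same 3 loci. miR-9 came from Mir9-1 at 1.79%, Mir9-3 at 2.59% and Mir9-2 at 6.68%. miR-26a came from loci at 77.7% (10 cytosines) and 81.5% (2), and miR-196a from loci at 12.6% (2) and 4.0045% (1).

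The exception was miR-219a-5p, a microRNA of oligodendrocyte maturation. At Mir219a-1 the methylation was 0.190%, 0.122%, 0.0495% and 0.203% in the 4 mice, and at Mir219a-2 it was 59.5%, 60.4%, 57.5% and 61.4%. The loci differed by 57.5 to 61.2 points within a mouse and their values did not overlap. Depth was ample at both: the pooled reads gave 95% Wilson intervals of 0.0166% to 0.144% at Mir219a-1 and 57.4% to 60.2% at Mir219a-2 in B6-1, intervals that cover counting error only. Of 88 cytosines at Mir219a-1 all were below 20%, with a highest value of 2.67%, whereas the 73 at Mir219a-2 ran from 7.30% to 100%, with 10 below 20%, 38 between and 25 above 80%. Both windows were CpG-rich, with ratios of 0.773 and 0.689. Along Mir219a-2 the values were lowest 5′ of the hairpin, at 43.0% ± 2.30 over 38 cytosines. They were 76.0% ± 1.67 over 7 cytosines inside it and 78.3% ± 1.82 over 28 cytosines 3′ of it.

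**Figure D4:**
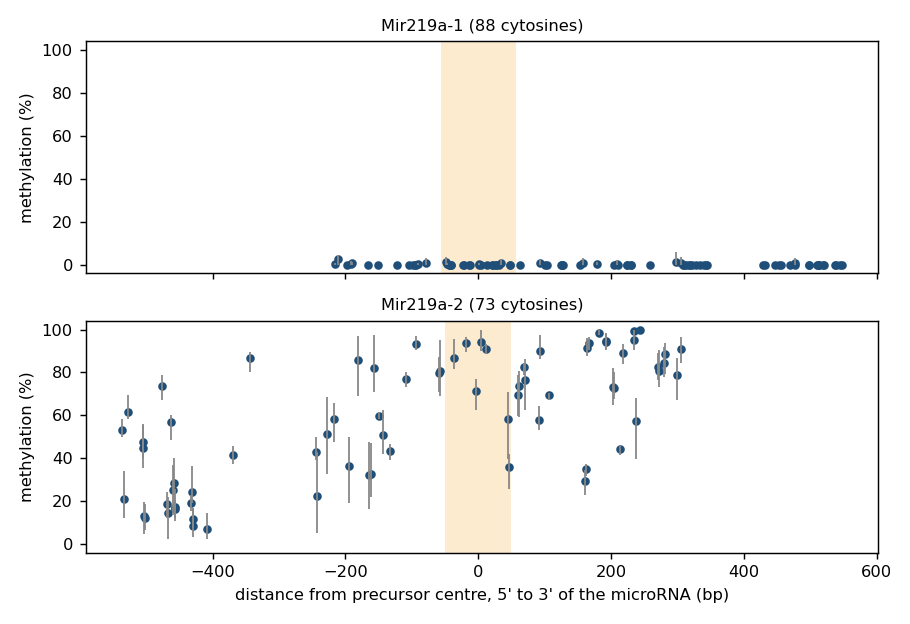
Methylation of each common cytosine (vertical axis, percent; points are means of 4 mice and vertical lines span the 4 mice) against its distance from the centre of the precursor in bp, read 5′ to 3′ along the microRNA, at Mir219a-1 (top) and Mir219a-2 (bottom), with the precursor shaded. All points at Mir219a-1 lie at or below 2.67%, and at Mir219a-2 they run from 7.30% to 100%.

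Seeds were shared more widely. Of 22 seeds found at more than 1 covered locus, 11 had loci within 10 points of each other, 5 spanned 10 to 40 points and 6, that of miR-219a-5p included, spanned 40 points or more. The Mir9 loci, Mir26a-2 and Mir26b are counted under more than 1 seed, and loci with 1 or 2 cytosines are included. The widest was shared by Mir7075 at 0.185% and Mir7076 at 96.4%. The let-7 seed was carried by Mirlet7i at 0.101% (123 cytosines) and by Mirlet7e at 75.8% ± 4.42 (15 cytosines), 71.1 to 80.05 points apart within a mouse. The seed of miR-25-3p was carried by Mir92b at 16.7% ± 4.13 and by Mir25 at 65.5% ± 3.69, 44.4 to 52.5 points apart. Another was carried by Mir423 in Nsrp1, 265 bp from its TSS, at 0.120% and by Mir6921 in Srebf1 at 78.1%. The seed of miR-148a-3p, by contrast, was carried by Mir148a and Mir152 at 0.592% and 1.40%. The CpG ratio was 0.317 at Mirlet7e and 1.15 at Mirlet7i, 0.239 at Mir25 and 0.558 at Mir92b. The loci named here were picked after their values were seen, so no test is given.

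The CpGs of the microRNA sequence itself were also read. The 270 microRNAs with a sequence, all chosen for a measured CpG within 500 bp, had 450 mature sequences. A CG dinucleotide occurred in 229 of these 450 and in 105 seeds, a share that does not describe microRNAs in general. Common cytosines fell inside a mature strand at 83 microRNAs and inside a seed at 48. In the hairpins above, measured cytosines lie in the hairpin of Mir219a-1 at 22 positions, where the mean was 0.104%, and at 7 positions of Mir219a-2.

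Intermediate values recurred in each mouse. Mir6991, in an intron of 2700081O15Rik, had 79 cytosines at 28.6%, 29.6%, 20.3% and 26.8%. Mir671, in the coding exon of Chpf2, had 23 at 57.5% ± 4.59, Mir5046 had 44 at 72.1% ± 3.32 and Mir3082, in Stub1, had 10 at 50.7% ± 1.91. The median SD over the 4 mice was 0.166 points for hypomethylated, 3.37 for intermediate and 2.30 for hypermethylated microRNAs.

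The strains differed little at these sites. The mean over 248 microRNAs was 0.662 points higher in the Mixed than in the B6 mice, and an exact label permutation test gave p = 0.333, the smallest that 2 against 2 can give. With each of the 5429 cytosines weighted equally it was 0.219 points (exact permutation p = 0.667), and without B6-1 it was 0.303 points. The absolute difference was under 1 point at 131 microRNAs and under 5 points at 228, and it reached 10 points at 3. Among microRNAs with at least 5 cytosines the largest was at Mir138-2, a neuronal microRNA, with 65.2% and 72.6% in the Mixed mice and 51.6% and 48.8% in the B6 mice, a difference of 18.7 points where the groups did not overlap. It rested on 5 cytosines with a median coverage of 27 reads. Summed over these cytosines there were 60 and 65 reads in the Mixed mice and 288 and 191 in the B6 mice. The Wilson interval of Mixed-1, 52.4% to 75.8%, overlapped those of B6-1 (46.7% to 58.1%) and B6-2 (43.8% to 57.8%). That of Mixed-2, 62.0% to 83.0%, overlapped neither. Groups that did not overlap were found at 74 of the 248 microRNAs. Mir125a followed with 10.8 points and the cluster of Mir99b and Mirlet7e with 7.46 points, all higher in the Mixed mice. These were selected as the largest and carry no test.

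**Figure D5:**
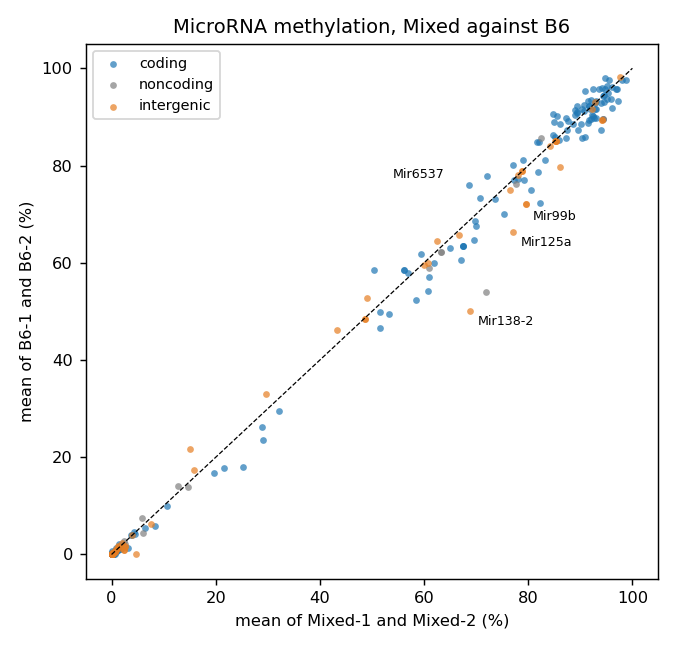
Mean methylation of each of 248 microRNAs in the B6 mice (vertical axis, percent) against the Mixed mice (horizontal axis, percent), coloured by host class, with the line of equality dashed and 4 microRNAs labelled. Most points hug the line, 228 of 248 within 5 points, and Mir138-2 differs by 18.7 points.

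Single cytosines were tested with a logistic model for overdispersed reads with limma-moderated variance, Benjamini-Hochberg adjusted over all 1276684 cytosines. At an adjusted p under 0.01 and a difference of at least 25 points it called 0.00658% of all cytosines (84) and 0 of the 5429 at microRNAs. The count over all cytosines depended on how the prior for the overdispersion was estimated, being 64 with the prior taken from every cytosine in place of those between 10% and 90%, with 0 at microRNAs again. At an unadjusted p under 0.05 it passed 68 of them, 1.25%, against 2.04% of all cytosines. A difference of at least 25 points, whatever its p, was present at 12 of them, and at 0.373% of all. Limma on log2 ratios called 0 of the 5429 and 0 overall. Fisher's exact test with the reads of a strain's mice summed, so without their spread, called 3 of them and 0.126% of all. The 3 were at Mir5046, Mir1191b and Mir5626, and the difference, Mixed minus B6, was -37.6, -36.5 and -33.7 points.

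The strongest of these, at chr19:6830054 beside Mir5046, had 20.5% and 10% in the Mixed mice at 44 and 70 reads and 46.2% and 59.6% in the B6 mice at 91 and 99 reads. The groups did not overlap, but its adjusted p in the logistic model was 0.138. With B6-1 left out, which leaves B6-2 alone in its group and takes its spread from the Mixed mice and from the other sites, it was called, the 1 call among the 5429.

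With the bounds relaxed to an adjusted p under 0.05 and 10 points, the model called 0.0207% of all cytosines and 1 at a microRNA, at chr9:110281329 in Mir6236 (13.7% and 22.0% in the Mixed mice, 7.58% and 6.55% in the B6 mice; adjusted p = 0.00279). Its adjusted p was 0.318 with limma on log2 ratios. At the stricter bounds neither limma nor the logistic model with the replicate block called any cytosine of the series, so they are no check on this call. Its coverage was 956 to 5684 reads where the median at microRNA cytosines was 54, and whether that depth had a part in the call was not tested.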

How the data were processed

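ERRBS libraries of 4 mouse livers, 2 Mixed and 2 B6, were read from the deposited tables, and each mouse was 1 replicate. The authors digested DNA with MspI, treated it with bisulfite and sequenced single-end reads of 50 cycles. The paper's discussion describes ERRBS in general as using TaqαI together with MspI. The study's methods name BSMAP and mm10, whereas the submitters' processing notes list Bismark, SAMtools and mm10. In the deposited tables coverage is an unnormalized read count per cytosine and strand, with a minimum of 10. Beside it stands the percent of reads calling C and the percent calling T, as computed by the authors. A coverage of 10 allows steps of about 10 points at a single cytosine, so low coverage limits single cytosines more than means over a microRNA.

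Methylated reads were recovered from percent and coverage, and came out whole within 0.01 reads at more than 99% of cytosines. Sites common to the 4 mice were placed on GRCm38.p6 with its RefSeq annotation. A microRNA inside the span of an NM_ transcript was called coding, inside only an NR_ transcript noncoding, and otherwise intergenic. Its methylation was the mean over its cytosines, given for microRNAs with at least 3. Below 20% was called hypomethylated and above 80% hypermethylated. The CpG ratio is the observed over the expected number of CpGs in the window.

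Class means were compared within each mouse by an exact sign-flip permutation test (n = 4), and strains by exact label permutation. Cytosines were tested between strains with the logistic model (R 4.3.3, limma 3.58.1), which was tested on simulated data. Intervals are 95% Wilson. Python 3.11.15 with scipy 1.17.1 was used for the rest. Named microRNAs were those of fixed family lists with a common cytosine; the 3 with the most cytosines in each class of host and distance; the 5 highest and 5 lowest and all intermediate ones with at least 10 cytosines; and any with a strain call or among the 3 largest strain differences. The text describes a selection of them, and some are not reported here. The members and lists were chosen with earlier results of these data known. Same-numbered mice (Mixed-1 with B6-1, Mixed-2 with B6-2) are different animals. Alternatives covered coverage, strand merging, window, TSS distance, weighting, host rules, the strain test and leaving out each mouse. Non-CpG cytosines and sex chromosomes were not used here.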

Additional observations from a re-analysis of the deposited data

How the results depend on the processing

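The direction of most differences held under the alternatives tried, but their size often did not. Across all of them the near minus far difference ran from -59.2 to -14.1 points. The coding minus intergenic difference far from a TSS ran from 4.39 to 45.1 points. The far difference between microRNA and other cytosines ran from -25.4 to -4.88 points. The values nearest to 0 came from strata of CpG ratio, which were added after seeing the data. The 45.1 came from weighting each cytosine equally and classing it by its own position rather than that of its precursor. 3 results reversed. The precursor minus flank difference was -0.0450 points with a window of 250 bp, the coding minus intergenic difference was -5.11 points in windows with a CpG ratio of 0.6 or above, and its near counterpart was 2.26 points without Mir99b, Mirlet7e and Mir125a, the last 2 settings also being added after seeing the data. Requiring at least 5 cytosines left 47 hypermethylated microRNAs in place of 84. The count of strain-variable cytosines at microRNAs was 3 by Fisher's exact test on pooled reads and 1 at 10 points, against 0; it was also 0 with the overdispersion prior taken from every cytosine, added after seeing the data. Mixed minus B6 ran from 0.219 to 0.705 points, and the coding minus intergenic difference up to 21.7.

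Leaving out each mouse in turn gave -57.1 to -56.8 points for near minus far, 17.4 to 17.6 for coding minus intergenic, 31.6 to 31.7 for the same far from a TSS and -10.3 to -9.81 near one. It gave 0.663 to 0.806 points for precursor minus flank, -23.6 to -23.5 for far and -1.32 to -1.31 for near microRNA against other cytosines, and 0.303 to 1.02 for Mixed minus B6. The strain-variable count ran from 0 to 1, the 1 being Mir5046 without B6-1. With 3 mice the smallest exact permutation p is 0.25.

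The labels number the mice of both strains 1 and 2. Deviations of same-numbered mice correlated at -0.0984 over 248 microRNAs. With so few mice this value cannot tell whether they share more than a number, such as a batch. With the replicate block the near minus far difference was -56.9 points as without it, and 0 cytosines were called, both at microRNAs (0 without it) and in all (84 without it). That fit leaves a single residual degree of freedom and the block's smallest exact permutation p is 0.5, so it says nothing about stability. Mixed minus B6 was 0.856 points in the first pair and 0.467 in the second.

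With 4 mice no exact test between classes can pass 0.05. Coverage of 10 or more reads limits single cytosines, and 797 of 1089 precursors, Mir122 among them, had no cytosine common to the 4 mice, so the values describe CpG-rich or MspI-accessible microRNA loci.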
